A study of Homo sapiens with 15 samples.

Results

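The genes described here are 9 components and regulators of complement, out of 19684 genes in the deposited tables. They were chosen by symbol, and all 9 were found: *C1R*, *C1S*, *C3*, *CFB*, *CFI*, *SERPING1*, *CD46*, *CD55* and *CD59*. Their RNA was followed in 15 poly(A) RNA-seq libraries, 3 from each of 5 groups that all came from BC1-GFP, a human induced pluripotent stem cell (hiPSC) line that carries a GFP reporter. The groups were undifferentiated hiPSCs, the neural retina (NR) layers of retinal organoids (ROs) at differentiation day 70 (D70-ROs) and day 150 (D150-ROs), and Müller glial cells expanded from D150-ROs (iMGCs) at passage 1 (P1) and passage 5 (P5). Several ROs were pooled for each RO library. The iMGCs were plated from dissociated NR layers and grown attached in a medium of their own, so leaving the organoid, the change of medium and passaging cannot be told apart in the comparison of iMGCs with D150-ROs. Foetal bovine serum was part of both the iMGC medium and the later RO medium. All material came from 1 line, and no treatment or genotype is compared.

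Complement is a cascade of proteases and binding proteins that tags surfaces with fragments of C3 and can end in a pore in the membrane. The proteases C1r and C1s start the classical pathway, factor B drives the alternative pathway, and both routes converge on C3. Regulators hold the cascade in check in the fluid (C1 inhibitor, factor I) and on the cell's own surface (CD46, CD55, CD59). Most plasma complement comes from the liver, but retinal glia, microglia and pigment epithelium also make components, and complement regulation in the eye is linked to macular degeneration.

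Sequences upstream of a transcription start are shown for a regulator that changed strongly between groups (*CFI*) and for a pair of membrane regulators that were higher in iMGCs (*CD46*, *CD59*). They were taken from RefSeq promoter windows on GRCh38.p14, limited to the bases outside the gene as GENCODE 29 bounds it, and are written from 5′ to 3′ on the gene's strand with CpG dinucleotides in capitals. The windows lay at chr4:109802180-109802249 on the minus strand (*CFI*, 70 bases), chr1:207751788-207752037 on the plus strand (*CD46*, 250 bases) and chr11:33736492-33736729 on the minus strand (*CD59*, 238 bases).
CFI: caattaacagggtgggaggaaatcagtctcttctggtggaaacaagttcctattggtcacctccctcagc
CD46: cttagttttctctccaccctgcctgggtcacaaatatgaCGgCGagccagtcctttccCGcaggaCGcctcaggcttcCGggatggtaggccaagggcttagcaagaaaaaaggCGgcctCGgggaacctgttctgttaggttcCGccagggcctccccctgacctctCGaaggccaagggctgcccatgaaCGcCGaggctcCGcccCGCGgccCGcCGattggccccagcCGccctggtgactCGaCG
CD59: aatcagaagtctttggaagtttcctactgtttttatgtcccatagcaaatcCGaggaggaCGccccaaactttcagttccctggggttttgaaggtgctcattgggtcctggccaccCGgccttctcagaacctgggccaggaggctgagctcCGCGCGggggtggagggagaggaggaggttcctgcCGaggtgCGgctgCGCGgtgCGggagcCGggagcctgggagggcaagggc
The *CFI* stretch held 0 CpG dinucleotides, that of *CD46* 19 and that of *CD59* 12. Over the whole 250 bases before its RefSeq start, *CFI* held 1 CpG, and 6.1% of 35116 promoter windows held fewer. The median window held 11, with quartiles of 3 and 23. No methylation was measured in these libraries.

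The deposited values are an expected count per gene (an estimate of the reads from that gene, not normalized) and FPKM (a level scaled for the length of a gene's transcripts and the depth of the library), which allows levels of different genes to be set side by side. Totals of expected counts ran from 11349600 (D70-RO replicate 2) to 20398755 per library, with a median of 17194154. Pluripotency markers summed to between 2949.31 and 3115.34 FPKM in hiPSCs and to at most 8.21 FPKM in every other library. Photoreceptor markers summed to between 675.04 and 680.95 FPKM in D150-ROs and to at most 0.56 FPKM in iMGCs. Of 5 Müller glia markers, *VIM* was called higher and *RLBP1*, *GLUL*, *SLC1A3* and *SOX9* were called lower in both iMGC groups than in D150-ROs. *RLBP1*, which encodes the retinal glial protein CRALBP, had a mean of 33.5 FPKM in D150-ROs and of 0 and 0.03 FPKM in P1 and P5 iMGCs. Of these markers *VIM* alone was thus above its level in the D150-ROs, while *GLUL* (means of 13.4 and 14.6 FPKM at P1 and P5) and *SOX9* (5.21 and 3.59 FPKM) remained measurable. Undifferentiated hiPSCs had means of 77.1 FPKM for *GLUL*, 6.64 for *SLC1A3*, 4.94 for *SOX9* and 142 for *VIM*. In FPKM, *GLUL* and *SLC1A3* (0.37 and 1.19 at P1 and P5) were thus lower in iMGCs than in hiPSCs. *SOX9* was not clearly higher in iMGCs, and *VIM* was higher (2160 and 2858 FPKM). Tests of iMGCs against hiPSCs were not run. Mesenchymal and fibroblast markers, led by *COL1A1*, summed to between 23.4 and 28.48 FPKM in D150-ROs and to between 2295.89 and 2838.13 FPKM in iMGCs. In bulk RNA, fewer cells that express a gene and less RNA per cell cannot be told apart, which holds for every difference below.

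Fold changes come from edgeR's quasi-likelihood test on counts scaled with TMM factors, with Benjamini-Hochberg adjustment over all genes tested, and are given as log2 values with their standard error (SE). A gene was tested where it reached 1 FPKM in at least 3 of the 6 libraries compared, and it was called, or said to rise or fall, at an adjusted p under 0.05 with at least a 2-fold change. FPKM and TMM put the zero at different places. On the scale of log2(FPKM + 1) the median of all genes tested was −0.59 in P1 iMGCs and −0.65 in P5 iMGCs against D150-ROs, 0.19 for D150-ROs against D70-ROs and 0.27 for D150-ROs against hiPSCs, and after TMM scaling it lay at −0.05, −0.05, −0.01 and −0.02. Fold changes of the members are thus relative to the other genes and differ from ratios of FPKM, most of all for iMGCs.

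*CD59* was the member with the highest mean level in 4 of the 5 groups, and *SERPING1* in hiPSCs. In hiPSCs the order was *SERPING1*, *CD59*, *CD46*, *CD55*, *C1R*, *C3*, *C1S*, *CFB* and *CFI*, and the libraries of neighbours overlapped for *C3* and *C1S* alone. In D70-ROs *CD59* led, followed by *CD46* and *SERPING1*, whose libraries overlapped, then by *CD55*, and then by *C1S*, *C1R*, *CFI* and *C3*, each overlapping with the next, with *CFB* last. In D150-ROs *CFI* came after *CD59* and *CD46* and overlapped with *SERPING1*. *CD55*, *C1R*, *C1S* and *C3* followed there, and *C3* overlapped with *CFB*. In both iMGC groups the 3 membrane regulators took the first 3 places in the order *CD59*, *CD46*, *CD55* with no overlap. In P1 iMGCs the other 6 genes had means between 0.54 and 1.82 FPKM, and each overlapped with its neighbour. In P5 iMGCs *CFI*, *C3*, *SERPING1* and *C1S* overlapped in turn, and *C1R* overlapped with *CFB*.

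**Figure D1:**
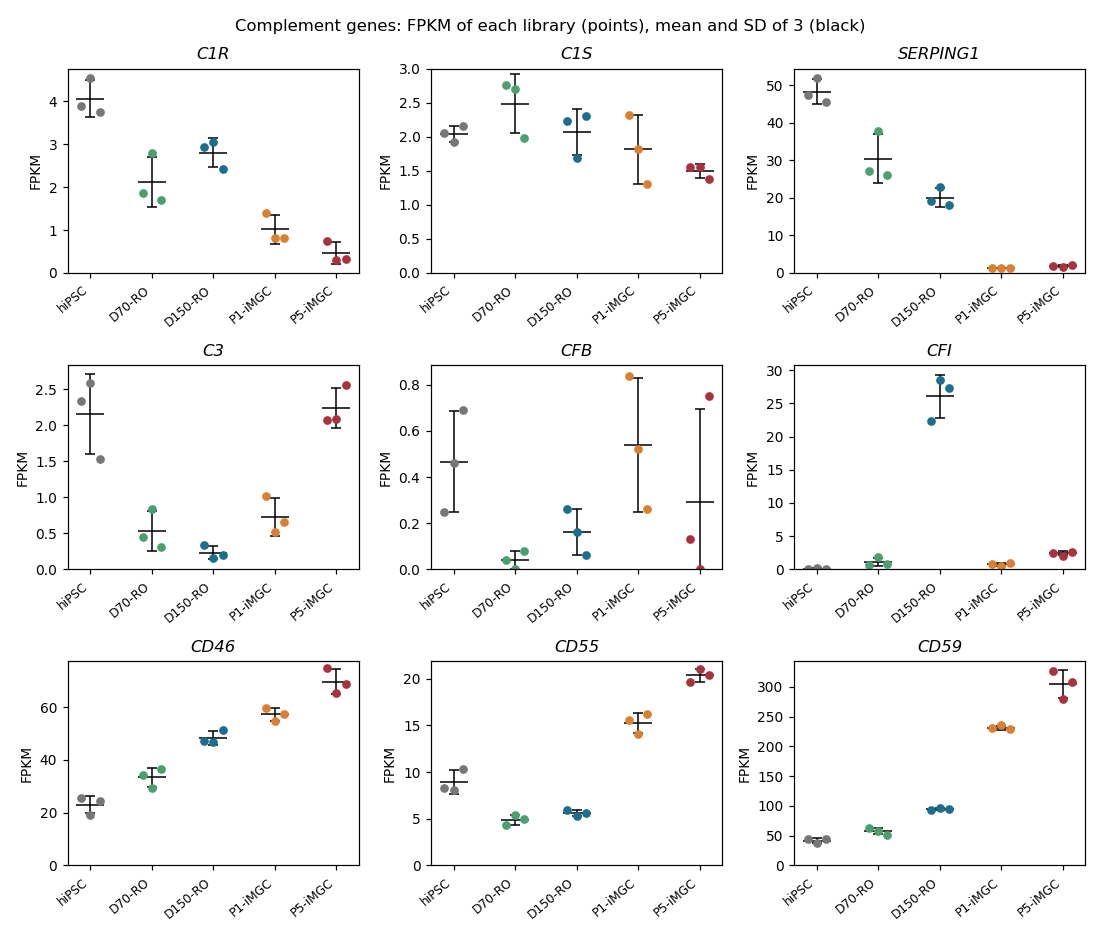
FPKM of the 9 complement genes (vertical axes, linear from 0) in the 5 groups; points are libraries, and black lines give the mean and SD of 3 libraries. *SERPING1* drops from between 17.99 and 22.84 FPKM in D150-ROs to at most 2.16 FPKM in iMGCs, *CFI* peaks in D150-ROs, and *CD59* reaches between 278.99 and 326.77 FPKM in P5 iMGCs.

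*C1R* (ENSG00000159403, chr12:7080199-7092607, minus strand) encodes the protease that activates C1s within the C1 complex. Its level was 3.89, 4.55 and 3.75 FPKM in the hiPSC libraries, 1.86, 2.79 and 1.71 at D70 and 2.94, 3.06 and 2.42 at D150. In P1 iMGCs it was 1.40, 0.82 and 0.82 FPKM, and in P5 iMGCs 0.75, 0.29 and 0.33 FPKM. The hiPSC libraries lay above all RO libraries, and the iMGC libraries lay below all of them. *C1R* fell by 1.12 (SE 0.24, adjusted p = 0.00137) on the log2 scale from hiPSCs to D70-ROs. Without D70-RO replicate 3 this difference was −0.96 and under 2-fold. From D150-ROs, *C1R* fell by 1.16 (SE 0.19, adjusted p = 2.73e-05) in P1 iMGCs and by 2.45 (SE 0.27, adjusted p = 3.14e-07) in P5 iMGCs. On log2(FPKM + 1) with libraries centred on their median gene, an alternative added after seeing the data, these were −0.27 and −0.71, both under 2-fold. At its lowest, in P5 iMGCs, *C1R* rested on 42 counts over 3 libraries. P5 against P1 iMGCs did not reach the level set for testing, and without that filter *C1R* was −1.29 there (adjusted p = 0.000915). D150-ROs and D70-ROs overlapped (log2 fold change 0.25, SE 0.24, adjusted p = 0.378).

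*C1S* (ENSG00000182326, chr12:6988259-7071032, plus strand), which encodes the protease that cleaves C4 and C2, had the smallest range over the 15 libraries of the 8 members that reached 1 FPKM in at least 3 of them, 0.71 in log2(FPKM + 1). Its libraries lay at 2.06, 1.92 and 2.16 FPKM in hiPSCs, at 2.77, 2.71 and 1.99 FPKM at D70 and at 2.24, 1.69 and 2.30 FPKM at D150. Those of P1 iMGCs lay at 2.32, 1.82 and 1.31 FPKM and those of P5 iMGCs at 1.56, 1.55 and 1.38 FPKM. *C1S* was called in none of the 6 comparisons, with log2 fold changes between −0.50 and 0.23. Its direction in iMGCs depended on the scale. Against D150-ROs it was 0.23 (P1) and 0.18 (P5) in the count test, with adjusted p of 0.258 and 0.351, but −0.14 and −0.30 on log2(FPKM + 1). The ratio of *C1R* to *C1S* was 1.74 to 2.37 in hiPSCs, 0.671 to 1.03 at D70, 1.05 to 1.81 at D150, 0.451 to 0.626 in P1 iMGCs and 0.187 to 0.481 in P5 iMGCs. It was thus lower at D70 than at D150 in every library.

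*SERPING1* (ENSG00000149131, chr11:57597387-57614853, plus strand) encodes C1 inhibitor, the serpin that inactivates C1r and C1s. It was read at 47.27, 51.89 and 45.49 FPKM in hiPSCs, 27.11, 37.88 and 26.12 at D70 and 19.25, 22.84 and 17.99 at D150. The iMGC libraries held 1.17, 1.37 and 1.31 FPKM at P1 and 1.77, 1.53 and 2.16 FPKM at P5. No libraries overlapped between any pair of these groups. From hiPSCs to D150-ROs *SERPING1* fell by 1.70 (SE 0.10, adjusted p = 5.97e-09). The step from hiPSCs to D70-ROs was −0.92 (SE 0.16, adjusted p = 0.000249), which is under 2-fold, and without D70-RO replicate 2 it was −1.12 and called. From D150-ROs it fell by 3.61 (SE 0.13, adjusted p = 6.27e-13) in P1 iMGCs, which is 12.2-fold, and by 2.93 (SE 0.12, adjusted p = 7.1e-13) in P5 iMGCs, which is 7.60-fold. P5 libraries lay above P1 libraries by 0.69 (SE 0.22, adjusted p = 0.0185), under 2-fold.

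The summed level of the C1 proteases was also set against that of their inhibitor. The ratio of *C1R* plus *C1S* to *SERPING1*, in FPKM, was 0.125 to 0.13 in hiPSCs, 0.142 to 0.171 at D70 and 0.208 to 0.269 at D150. It was 1.63 to 3.18 in P1 iMGCs and 0.792 to 1.31 in P5 iMGCs. RNA of the inhibitor exceeded that of both proteases together in all 9 hiPSC and RO libraries, and fell short of it in 5 of 6 iMGC libraries. In iMGCs the ratios rest on few reads, with 26 to 53 counts of *SERPING1* and 9 to 38 of *C1R* per library. Reads of *C1S* where *EMG1* and *LPCAT3* overlap it are uncertain. These are ratios of RNA, and no protein was measured.

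**Figure D2:**
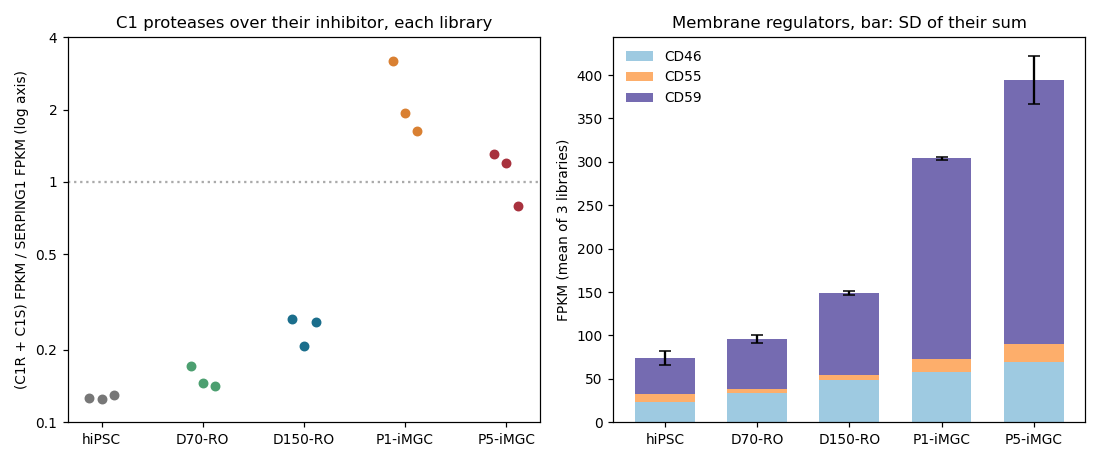
Left, the ratio of *C1R* plus *C1S* to *SERPING1* in FPKM for each library on a log axis, with a dotted line at 1. Right, stacked mean FPKM of *CD46*, *CD55* and *CD59* per group, with the SD of their sum over 3 libraries. The ratio stays below 0.27 in hiPSCs and ROs and lies between 0.792 and 3.18 in iMGCs, while the sum grows from 73.6 FPKM in hiPSCs to 395 FPKM in P5 iMGCs.

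*C3* (ENSG00000125730, chr19:6677704-6730562, minus strand), the component on which all pathways converge, was higher at both ends of the series than between. It did not exceed 2.59 FPKM in any library. Its level was 2.34, 2.59 and 1.53 FPKM in hiPSCs, 0.44, 0.84 and 0.31 at D70 and 0.33, 0.16 and 0.19 at D150. It was 1.02, 0.51 and 0.65 FPKM in P1 iMGCs and 2.07, 2.08 and 2.56 FPKM in P5 iMGCs. The P5 libraries overlapped with hiPSCs and with no other group. Against hiPSCs, *C3* fell by 2.49 (SE 0.31, adjusted p = 2.48e-05) at D70 and by 3.55 (SE 0.32, adjusted p = 3.7e-07) at D150. From D150-ROs to P5 iMGCs it rose by 4.16 (SE 0.24, adjusted p = 1.02e-10), a 17.9-fold change between 50 and 577 counts over 3 libraries each. From P1 to P5 it rose by 2.00 (SE 0.15, adjusted p = 1.23e-10), a 4.00-fold change from 151 counts. On log2(FPKM + 1), where the pseudocount shrinks changes of such low levels, the rise from P1 to P5 was 0.91 and not called. Between D150-ROs and P1 iMGCs *C3* did not reach the level set for testing. Without that filter it was higher in P1 iMGCs by 2.17 (SE 0.33, adjusted p = 2.43e-06).

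*CFB* (ENSG00000243649, chr6:31945650-31952084, plus strand), which encodes factor B, the protease of the alternative pathway convertase, stayed below 1 FPKM in all 15 libraries and was tested in none of the comparisons. Its libraries held 0.25, 0.46 and 0.69 FPKM in hiPSCs, 0.04, 0 and 0.08 at D70, 0.26, 0.16 and 0.06 in D150-ROs, 0.84, 0.52 and 0.26 in P1 iMGCs and 0.13, 0 and 0.75 in P5 iMGCs. With 50, 6, 11, 30.11 and 11 counts per group, differences in *CFB* were close to the limit of detection, and the P5 libraries alone spanned 0 to 8 counts. Without the filter on low values *CFB* was −2.91 in D70-ROs against hiPSCs (adjusted p = 0.0101), −2.21 in D150-ROs against hiPSCs (adjusted p = 0.0147) and 2.00 in P1 iMGCs against D150-ROs (adjusted p = 0.0117).

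*CFI* (ENSG00000205403, chr4:109740694-109802179, minus strand) encodes factor I, the serum protease that cuts C3b and C4b with the help of cofactors such as CD46. It had the widest range of the same 8 members, 4.82 in log2(FPKM + 1). The hiPSC libraries held 0.05, 0.15 and 0.05 FPKM, and 10.54 counts in all. D70-RO libraries held 0.68, 1.77 and 0.75 FPKM, and D150-RO libraries 22.42, 28.58 and 27.33 FPKM. It was 0.74, 0.53 and 0.90 FPKM in P1 iMGCs and 2.49, 2.05 and 2.64 FPKM in P5 iMGCs. Every D150-RO library was above every other library, and P1 iMGCs overlapped with D70-ROs. Between D70 and D150 *CFI* rose by 4.51 (SE 0.36, adjusted p = 7.02e-06), or 22.7-fold. Without D70-RO replicate 2, whose level was the highest of the D70-ROs, this was 5.17. Against hiPSCs, D150-ROs were higher by 7.79 (SE 0.25, adjusted p = 4.04e-11), and by 8.54 without hiPSC replicate 2.

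From D150-ROs to P1 iMGCs *CFI* fell by 4.44 (SE 0.14, adjusted p = 6.63e-14), and to P5 iMGCs by 2.64 (SE 0.11, adjusted p = 7.3e-13). Between P1 and P5 iMGCs it rose by 1.81 (SE 0.21, adjusted p = 2.6e-07), or 3.49-fold, and on log2(FPKM + 1) by 0.98, just under 2-fold. The D70-ROs and hiPSCs were not tested for *CFI*, as too few libraries reached 1 FPKM. Without the filter D70-ROs were higher by 3.35 (SE 0.68, adjusted p = 0.000551). Photoreceptor markers had the same direction at D150 and in iMGCs, with sums of 675.04 to 680.95 FPKM in D150-ROs, 50.72 to 54.55 at D70 and at most 0.56 in iMGCs. Of the Müller glia markers *RLBP1* did so too, with a mean of 0.073 FPKM in hiPSCs, 1.16 at D70 and 33.5 at D150 and a log2 fold change of 4.66 (SE 0.27, adjusted p = 1.19e-06) between D70 and D150, where *SLC1A3* rose by 1.41 and *GLUL*, *SOX9* and *VIM* were not called. The 4 endothelial markers summed to 6.51 to 9.06 FPKM at D70, 84.73 to 92.23 at D150 and at most 0.61 in iMGCs. *KDR* made up nearly all of that sum at D150, with a mean of 89.2 FPKM, while *PECAM1*, *CDH5* and *VWF* had means of at most 0.02 FPKM. Between P1 and P5 iMGCs, where *CFI* rose, 1 of 4 Müller glia markers tested was called. It was *SLC1A3*, higher at P5, with means of 0.37 FPKM at P1 and 1.19 at P5. The part of photoreceptors, Müller glia and endothelial cells in these changes of *CFI* was not tested. A further gene annotated over *CFI*, AC126283.2, was at 0.81 FPKM or less in all libraries.

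The membrane regulators form the last group. CD46, also called membrane cofactor protein, serves as a cofactor of factor I, CD55 speeds the decay of C3 convertases, and CD59 keeps C9 from completing the membrane pore. *CD46* (ENSG00000117335, chr1:207752057-207795513, plus strand) was at 25.50, 19.24 and 24.35 FPKM in hiPSCs, 34.12, 29.41 and 36.45 at D70 and 47.10, 46.73 and 51.34 at D150. It was at 59.75, 54.85 and 57.39 FPKM in P1 iMGCs and at 74.68, 65.46 and 68.88 in P5 iMGCs. Each group lay above the one before it with no overlap, in small steps. *CD46* was called in 1 comparison, P5 iMGCs against D150-ROs, where it rose by 1.24 (SE 0.05, adjusted p = 1.33e-12). On log2(FPKM + 1) this was 0.52, under 2-fold. The other differences were 0.32 to 0.91, each under 2-fold with an adjusted p of at most 0.0103. For D150-ROs against hiPSCs the count test gave 0.76, and log2(FPKM + 1) gave 1.05, which was called.

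*CD55* (ENSG00000196352, chr1:207321376-207386804, plus strand) lies on the same chromosome as *CD46* and took a different course through the RO stages. Its libraries held 8.27, 8.08 and 10.36 FPKM in hiPSCs, 4.30, 5.41 and 4.92 at D70 and 5.90, 5.24 and 5.58 at D150. The iMGC libraries held 15.56, 14.12 and 16.19 FPKM at P1 and 19.68, 21.03 and 20.40 at P5. Both RO groups lay below hiPSCs, with log2 fold changes of −0.71 (SE 0.17 and 0.14, adjusted p = 0.00243 and 0.000434), under 2-fold, and they overlapped with each other. *CD55* rose from D150-ROs by 1.95 (SE 0.10, adjusted p = 1.72e-11) in P1 iMGCs and by 2.38 (SE 0.09, adjusted p = 3.11e-13) in P5 iMGCs. P5 iMGCs lay above P1 iMGCs without overlap, by 0.43 (SE 0.06, adjusted p = 9.11e-06), under 2-fold.

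*CD59* (ENSG00000085063, chr11:33703010-33736491, minus strand) held 44.23, 37.18 and 43.67 FPKM in hiPSCs, 62.48, 58.38 and 51.86 at D70 and 93.04, 97.13 and 93.98 at D150. At P1 it held 230.42, 235.04 and 228.72 FPKM and at P5 326.77, 278.99 and 307.96 FPKM. As for *CD46*, each group lay above the one before it with no overlap. *CD59* rose from D150-ROs by 2.03 (SE 0.05, adjusted p = 2.06e-15) in P1 iMGCs and by 2.43 (SE 0.06, adjusted p = 6.72e-16) in P5 iMGCs. In FPKM the ratios of the means were 2.44 and 3.22. The steps from hiPSCs to D70-ROs (0.31), from D70-ROs to D150-ROs (0.43) and from P1 to P5 (0.41) were under 2-fold. D150-ROs against hiPSCs gave 0.74, also under 2-fold, and 1.17 on log2(FPKM + 1), which was called.

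The sum of the 3 membrane regulators was 64.5 to 78.38 FPKM in hiPSCs, 93.2 to 100.9 at D70, 146.04 to 150.9 in D150-ROs, 302.3 to 305.73 in P1 iMGCs and 365.48 to 421.13 in P5 iMGCs. The share of *CD59* in this sum was 55.7 to 57.6% in hiPSCs, 62.3 to 65.1% in D150-ROs and 76.3 to 77.6% in P5 iMGCs. Against D150-ROs, RNA for regulators bound to the cell surface was thus higher in iMGCs, and RNA for the fluid regulators C1 inhibitor and factor I was lower. This opposition did not hold in every comparison. *CFI* was lower still in hiPSCs (mean of 0.083 FPKM), and *CFI*, *SERPING1* and the membrane regulators were all higher at P5 than at P1.

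Counted by comparison, 2 of 7 members tested were called in D70-ROs against hiPSCs (*C1R* and *C3*, both lower), where 43.5% of all genes tested were called, 22.5% higher and 21.1% lower. In D150-ROs against D70-ROs 1 of 7 was called (*CFI*, higher), against 33.3% of all genes, 16.6% higher and 16.7% lower. For D150-ROs against hiPSCs it was 3 of 8 (*CFI* higher, *C3* and *SERPING1* lower), against 58.8%, 29.8% higher and 29% lower. P1 iMGCs against D150-ROs gave 5 of 7 (*CD55* and *CD59* higher, *C1R*, *CFI* and *SERPING1* lower), against 44.1%, 20% higher and 24.1% lower. P5 iMGCs against D150-ROs gave 7 of 8, which is all tested members but *C1S*, against 44.6%, 20.8% higher and 23.9% lower, with *C3*, *CD46*, *CD55* and *CD59* higher and *C1R*, *CFI* and *SERPING1* lower. P5 against P1 iMGCs gave 2 of 7 (*C3* and *CFI*, both higher), against 2.92%, 1.94% higher. The 3 comparisons of ROs share libraries, as do the 3 with D150-ROs or iMGCs, so their counts are not independent of each other.

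Libraries did not overlap between the groups, in FPKM, for 6, 4, 7, 6, 8 and 6 of these tested members in the same order. The share of all genes tested that did not overlap was 75.5%, 77.2%, 87.4%, 87.9%, 88.5% and 39.5%. The median log2 fold change of the tested members was −0.71, 0.25, −0.54, 0.23, 0.71 and 0.43, against medians of all genes tested between −0.05 and 0.02.

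**Figure D3:**
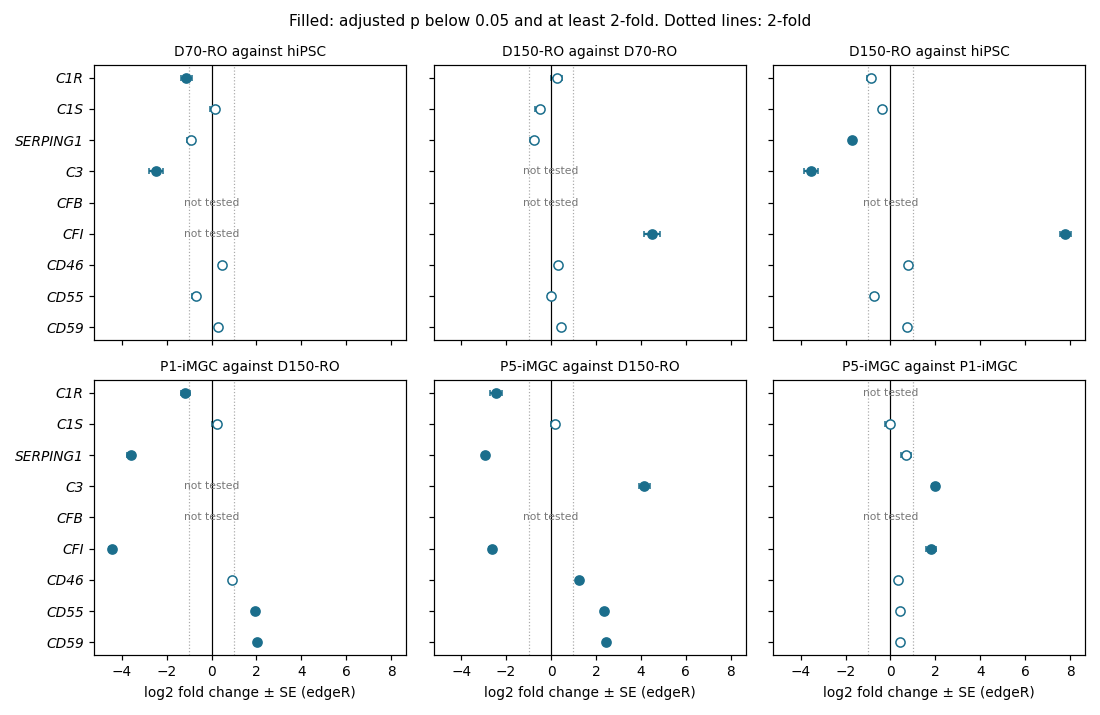
Log2 fold changes with SE (horizontal axes) of the 9 genes in 6 comparisons from edgeR's quasi-likelihood test; filled circles passed an adjusted p of 0.05 and a 2-fold change, and genes too low in a comparison are marked as not tested. *CFI* moves from 4.51 in D150-ROs against D70-ROs to −4.44 in P1 iMGCs against D150-ROs, and *C3* rises in P5 iMGCs against both P1 iMGCs and D150-ROs.

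Other genes of the cascade were followed through 4 lists that hold 46 genes, whose counts stand beside the shares of all genes called that are given above. Of 15 genes of the classical and lectin pathways, 4 were tested in D150-ROs against D70-ROs, and 3 rose: *C4A* by 3.20, *C4B* by 4.45 and *MASP2*, a protease of the lectin pathway, by 2.04. In P1 iMGCs against D150-ROs *C4A*, *C4B* and *MASP2* fell (3 of 4 tested), with log2 fold changes of −3.61, −4.99 and −2.14. *C4A* had 4.71, 5.57 and 4.66 FPKM and *C4B* 4.74, 3.43 and 4.03 FPKM in D150-ROs, and each had at most 0.70 FPKM in all other libraries. Their sequences are almost identical, so how reads were divided between them is uncertain. In P5 iMGCs against D150-ROs (3 of 4 tested) their log2 fold changes were −2.34 and −2.89, and that of *MASP2* was −2.02. *MASP1* and *COLEC11* fell from hiPSCs to D70-ROs (2 of 3 tested), with −4.22 and −2.47. They were also lower in D150-ROs than in hiPSCs, where *C4A*, *C4B* and *MASP2* were higher (5 of 6 tested called), and *COLEC11* had 2 counts there against 162, a ratio of 0.0152 with a 95% counting interval of 0.00183 to 0.0558. Of the subunits of C1q, which carry C1r and C1s, *C1QA* had a mean of at most 0.35 FPKM in each group, *C1QB* of at most 0.04 FPKM and *C1QC* no reads in any library.

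Of 9 genes of the alternative and terminal pathways, *C5* rose from hiPSCs to D70-ROs by 4.59, from 17 to 383 counts, while *CFP*, which encodes the convertase stabiliser properdin, fell by 2.36 (2 of 3 tested were called). Both kept these directions in D150-ROs against hiPSCs (4.11 and −2.83, 2 of 3 tested). In D150-ROs against D70-ROs *C5* (−0.49, SE 0.15, adjusted p = 0.017) and *CFD*, the protease that cleaves factor B (−0.41, SE 0.33, adjusted p = 0.278), were tested and neither was called. Against D150-ROs *C5* alone was tested, and it lay lower by less than 2-fold in P1 iMGCs (−0.93, SE 0.21, adjusted p = 0.000703) and P5 iMGCs (−0.78, SE 0.19, adjusted p = 0.00126). *C6*, *C8A*, *C8B*, *C8G* and *C9*, which build the membrane pore that CD59 blocks, had means of at most 0.07 FPKM in each group, and *C7* of at most 0.40 FPKM.

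**Figure D4:**
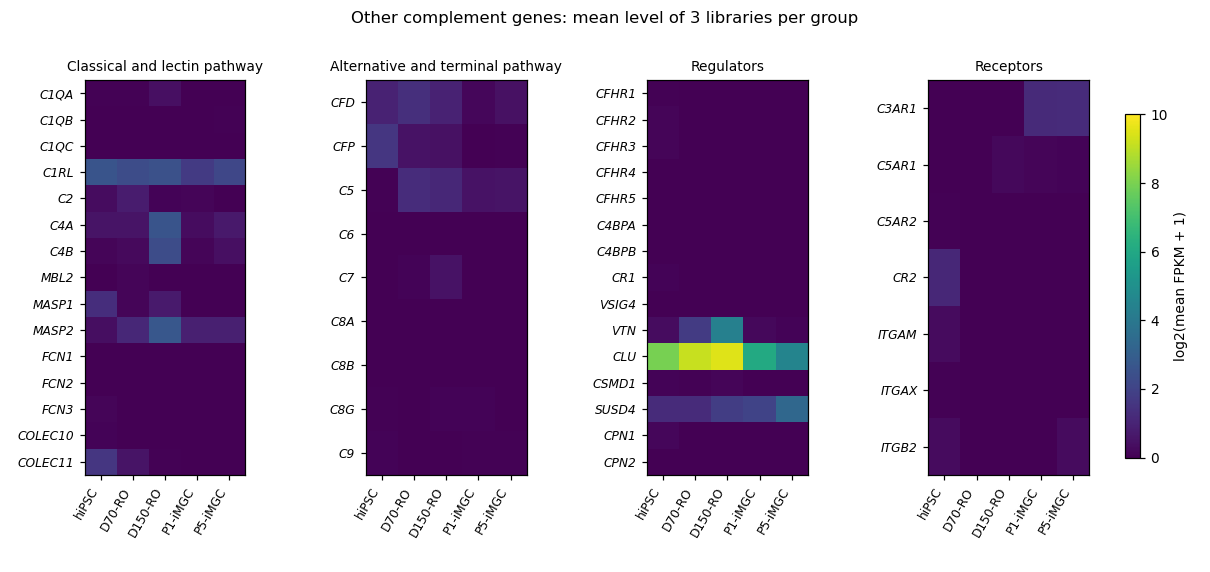
Mean level of 46 other complement genes in 5 groups, as log2(mean FPKM + 1) by colour, in 4 lists. *C4A*, *C4B*, *MASP2* and *VTN* are brightest in D150-ROs, *SUSD4* is brightest in P5 iMGCs, and most C1q, terminal pathway and receptor genes are dark in every group.

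Among 15 further regulators *VTN* and *CLU*, inhibitors of the terminal complex, fell in iMGCs. Between D70 and D150 *VTN* rose by 3.01 to 17.35, 17.35 and 23.78 FPKM, and in P1 iMGCs it fell by 6.28. *CLU* held 677.84, 805.27 and 698.21 FPKM in D150-ROs, against which its log2 fold change was −2.70 at P1 and −4.34 at P5. From P1 to P5 *CLU* fell by 1.63. *SUSD4*, a membrane inhibitor of complement, rose by 2.55 from D150-ROs to P5 iMGCs and by 1.61 from P1 to P5, where it held 8.58, 9.37 and 9.16 FPKM. Of the tested genes of this list, 2 of 3 fell in P1 iMGCs, 1 rose and 2 fell of 3 in P5 iMGCs, and 1 rose and 1 fell of 2 between the passages. In D70-ROs against hiPSCs 2 of 3 rose (*VTN* and *CLU*, by 2.85 and 1.17), in D150-ROs against D70-ROs 1 of 3 rose, and in D150-ROs against hiPSCs 2 of 3 rose (*VTN* and *CLU*, by 5.86 and 1.14).

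Of 7 complement receptors, *C3AR1*, the receptor for the C3a fragment, reached the level for testing in iMGCs alone. It had 2 counts in D150-ROs, 131 in P1 and 140 in P5 iMGCs, which relative to library totals is a ratio of 63.0 (95% counting interval 17.1 to 526) and 67.5 (18.3 to 563). Between the passages it was not called. None of the 7 receptors reached the level for testing in the 3 comparisons of hiPSCs and ROs. The highest mean in these groups was that of *CR2* in hiPSCs, 1.14 FPKM on 280 counts. It had 1 count in D70-ROs and 0 in D150-ROs, a difference that was not tested.

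Receptors and transcription factors through which cytokines are known to act on complement genes made up a list of 13. In P1 iMGCs against D150-ROs 5 of 13 rose and none fell (20% and 24.1% of all genes tested), led by *OSMR* (the oncostatin M receptor, 6.54), *CEBPB* (2.64), *IRF1* (1.98) and *TNFRSF1A* (1.78). In P5 iMGCs against D150-ROs 7 of 13 rose and none fell (20.8% and 23.9% of all genes), led by *OSMR* (6.97), *CEBPB* (2.84), *CEBPD* (2.18) and *IL1R1* (2.13). *OSMR* was at 0.38, 0.41 and 0.31 FPKM in D150-ROs, at 19.70, 18.73 and 21.45 FPKM in P1 iMGCs and at 24.56, 27.09 and 26.10 FPKM in P5 iMGCs. *CEBPD*, a factor of the acute-phase response that can act on *C3*, was the only one of the 13 called between the passages and rose by 1.35, where 1.94% of all genes rose. The part of *CEBPD* in the rise of *C3*, and of the other genes in changes of the members, was not tested.

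In D70-ROs against hiPSCs 3 of 11 tested inducers rose (*IL6ST* by 3.67, *NFKB1* by 1.26 and *RELA* by 1.13) and 1 fell (*OSMR*, with −5.27), against 22.5% and 21.1% of all genes. Between D70 and D150 *IL6ST*, the shared receptor subunit of the interleukin 6 family, rose by 1.81 and *CEBPB* fell by 1.26, of 11 tested, against 16.6% and 16.7% of all genes. Against hiPSCs D150-ROs had 3 of 12 higher (*IL6ST* by 5.49, *IFNGR1* by 1.34, and *NFKB1*) and 2 lower (*OSMR* and *CEBPB*, by −1.76 and −1.52), against 29.8% and 29% of all genes.

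Promoter windows of 300 bases (250 before and 50 after a RefSeq start) were at hand for 6 of the 9 members (not *C1S*, *C3* and *SERPING1*), 11 windows in all. The windows were searched on both strands for 4 motifs of factors on this list. The interferon gamma activated site TTCNNNGAA, which 7.66% of 35116 windows held, was matched in *CFB*, in 1 of 2 windows of *C1R* and in 2 of 4 windows of *CD59*, which overlap and share the match TTCTCAGAA. That match lies 128 bases before the outer *CD59* start and is within the sequence shown above. The interferon stimulated response element GAAANNGAA (8.11% of windows) was matched in *CFB* alone, and TTGCNNAA for C/EBP factors (10.5% of windows) in both windows of *C1R* and 1 of *CD59*. The kappa B site GGNNTTTCC (6.26% of windows) was matched in none, and *CFI*, *CD46* and *CD55* had no match to any of the 4. These are matches of letters and show no binding.

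The genes most like each member were sought among 13914 others by the root mean square difference of centred log2(FPKM + 1) over the 15 libraries. For *CFI* they were *SLC6A17*, *LRRC39* and *SLC40A1* (0.405 to 0.459), for *SERPING1* *PDE9A*, *KIF26A* and *GPRC5B* (0.247 to 0.262) and for *C3* *TNIP1*, *ERMP1* and *CD248* (0.239 to 0.285). *CD46* was closest to *ARSB*, *CLTC* and *SPOPL* (0.149 to 0.153), *CD55* to *ANTXR1*, *ELOVL1* and *GPR1* (0.159 to 0.194) and *CD59* to *NIPAL3*, *TMEM30A* and *GPAM* (0.168 to 0.182). *C1R* was closest to *MAML1*, *TOE1* and *CDK5RAP1* (0.178 to 0.186) and *C1S* to *POLR3C*, *NSMCE3* and *SDHB* (0.129 to 0.137). No other member was among the 3 closest genes of any member. The closest pair of members was *C1R* and *C1S* (0.571), followed by *C3* and *CD55* (0.594), and the most distant was *SERPING1* and *CD59* (2.92). These distances favour genes of small range and are given as a description.

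Markers of other cells that make complement were read beside these results. The 7 microglia and macrophage markers summed to 8.47 to 10.58 FPKM in hiPSCs, of which *AIF1* had a mean of 8.86 FPKM. The sum was 0.06 to 0.55 FPKM at D70 and 0.17 to 0.46 in D150-ROs. It was 0.47 to 0.94 FPKM in P1 iMGCs and 0.36 to 0.37 in P5 iMGCs. *TYROBP* was at 0 in all RO and iMGC libraries. Most of the sum in iMGCs was *CSF1R*, with means of 0.56 FPKM at P1 and 0.32 at P5. It had 78 and 64 counts there, against 4 in D150-ROs. The 4 hepatocyte markers summed to 0.76 to 7.54 FPKM in hiPSCs, 0.55 to 0.97 at D70, 0.25 to 0.69 FPKM in D150-ROs, 4.81 to 5.9 in P1 and 10.54 to 11.46 in P5 iMGCs, of which *SERPINA1*, an acute-phase serpin, had means of 0.097, 4.70 and 10.2 FPKM, and *ALB* of 0.24, 0.017 and 0.15 FPKM. The 5 pigment epithelium markers summed to 119.31 to 137.53 FPKM in hiPSCs, 82.12 to 131.47 at D70, at most 4.8 at D150 and at most 1.64 in iMGCs. *PMEL* had means of 127 FPKM in hiPSCs and 102 FPKM in D70-ROs, while *RPE65* had at most 0.12 FPKM in all of these libraries. The mesenchymal and fibroblast markers summed to 318.53 to 378.54 FPKM in hiPSCs and 18.28 to 34.19 at D70, led in hiPSCs by *THY1* (mean of 275 FPKM). Apart from *AIF1*, the microglia and macrophage markers had means of at most 0.63 FPKM in hiPSCs (*TMEM119*). Pigment epithelium markers other than *PMEL* had at most 0.29 FPKM there (*BEST1*), with 0 counts for *RPE65*, *TYR* and *MLANA*. Mesenchymal markers other than *THY1* had at most 37.3 FPKM (*COL1A2*). The 4 sums of these lists and of the hepatocyte markers were lower at D150 than in hiPSCs, as were *SERPING1* and *C3*. Their part in those falls was not tested. Not every gene of these lists was lower at D150. *BEST1* (means of 0.29 FPKM in hiPSCs and 2.87 at D150) and *PDGFRB* (4.86 and 16.2 FPKM) were called higher. They were 1 of 2 pigment epithelium markers and 1 of 4 mesenchymal markers tested there. The 7 mesenchymal and fibroblast markers were all called higher in P1 iMGCs than in D150-ROs, and 6 of 6 tested at P5, beside the rise of *CD55* and *CD59* and the fall of *SERPING1* and *CFI*. Their part in these differences was not tested. From P1 to P5, where *C3* and *CFI* rose, 2 of 7 fell and none rose.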

How the data were processed

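Poly(A) RNA of 3 hiPSC, 3 D70-RO, 3 D150-RO, 3 P1-iMGC and 3 P5-iMGC libraries was sequenced in pairs of reads. HISAT2 (mapping), StringTie (assembly) and RSEM (gene quantification) were used by the authors, per the methods and the labels' processing notes. Versions and genome build are not given in the sources used here. The deposited tables hold RSEM expected counts, estimated and not normalized, and FPKM, which the authors scaled for length and mapped reads. A further table's 12 columns, 6 of them of iMGCs without a passage, were not used. Positions come from GENCODE 29 (GRCh38), which holds all 19684 gene identifiers. The members and lists were chosen with earlier results of these data known.

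Expected counts were rounded and compared, 2 groups at a time and without covariates, in R 4.3.3 with edgeR 4.0.16 (TMM, quasi-likelihood test), on genes at 1 FPKM or more in 3 or more libraries. Calls needed a 2-fold change and, after Benjamini-Hochberg adjustment, a p under 0.05. The SE is the log2 fold change divided by the square root of its F statistic. The test was tested on simulated data. Alternatives used limma 3.58.1, DESeq2 1.42.0, other scalings, no filter, a test against a 2-fold change, a replicate block and leaving out each library. By the rule for names, the 9 members, at most 4 called genes per list and direction with the largest fold changes, and the 3 most similar genes per member were named, with levels of markers. One gene of the list of further regulators is not reported here. Statements on a gene's level across groups and on genes with almost no reads were added after their values were seen.

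The labels and methods give 3 independent experiments per group and 1 company, while the description of the series gives 2 for hiPSCs and ROs, 2 companies and a correction between batches. Batch and group cannot be told apart here. If libraries are not independent, the p-values measure technical spread. Libraries of a group differed by more than sampling noise (chi-square per gene of 2.33 to 33.6). No source used here says whether counting used strand. Genes that overlap *C1R* (*C1RL*), *C1S* (*EMG1* and *LPCAT3*) and *C3* (*GPR108*) were at 2.21 FPKM or more, so reads of the overlaps are uncertain. Counting intervals cover counting error only.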

Additional observations from a re-analysis of the deposited data

How the results depend on the processing

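The number of members called changed by more than 1.5 times in 3 comparisons. In D70-ROs against hiPSCs it was 4 without a filter on low values and 1 with limma on log2(FPKM + 1), on log2(FPKM + 0.1), with libraries centred on their median gene (added after seeing the data, as for all values with that centring) and in a test against a 2-fold change; leaving out 1 library gave 1 to 3. In D150-ROs against hiPSCs it was 5 with either pseudocount, with *CD46* and *CD59* added. In P5 against P1 iMGCs it was 0 with limma on log2(FPKM + 1) and 1 with centring. Over all genes, D150-ROs against D70-ROs gave 4276 calls and 2830 in the test against a 2-fold change. P5 against P1 iMGCs gave 332 calls, 694 without a filter, 152 on log2(FPKM + 1), 155 with centring and 161 in the test against a 2-fold change. A stricter limit accounts for the lower counts in the test against a 2-fold change by construction. Without a filter more genes were tested. The cause of the other differences was not tested.

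Directions that turned were of differences that were not called. *CD55* in D150-ROs against D70-ROs was −0.002 and became 0.00494 with DESeq2-type size factors, 0.00599 with DESeq2, 0.16 on log2(FPKM + 1) and 0.19 on log2(FPKM + 0.1), and −0.0514 to 0.0835 with 1 library left out. *C1S* became 0.0089 and 0.0093 in D150-ROs against hiPSCs with a pseudocount of 1 and of 0.1, −0.14 and −0.21 in P1 iMGCs and −0.30 and −0.44 in P5 iMGCs against D150-ROs, and ran from −0.15 to 0.12 between the passages with 1 library left out. The scale of FPKM moved the share of higher genes among all called genes, from 49.8% to 63.3% in D150-ROs against D70-ROs, from 45.4% to 22.9% in P1 iMGCs and from 46.5% to 22.4% in P5 iMGCs against D150-ROs. With centring it was 40.3%, 55.3% and 55.6%.

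Whether equal replicate numbers mark paired libraries could not be told from 3 libraries per group. Deviations of equally numbered libraries from their group means correlated between −0.0795 and 0.35. In no comparison did all 3 numbers match best, while 2 of 3 did in D70-ROs against hiPSCs and in P5 against P1 iMGCs. A replicate block left the counts of members called at 2, 1, 3, 5, 7 and 2 in the order of the report and gave 5662, 4317, 7845, 5691, 5785 and 333 calls over all genes. Counts under about 50 per group (*CFB*, *C1R* at P5, *CFI* in hiPSCs) limit those differences.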
